A study of Mus musculus with 4 samples.

Results

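Serpins are a family of proteins that fold alike. Of 18193 genes read from an array of mouse kidney RNA, 40 carried a serpin symbol, that is, a symbol made of Serpin, a clade letter from a to d or from f to i, and a number. They were read from 56 probe sets, each listed under that 1 symbol alone, and 3 probe sets listed under several serpin symbols were left out. Members of clade E were not analysed here. Kidneys came from male C57Bl/6 mice that were labelled Tet2 knockout or wild type, and that underwent either renal ischemia for 60 min with reperfusion for 24 h (IR) or sham surgery. The 4 groups were knockout-labelled IR, knockout-labelled sham, wild-type IR and wild-type sham. Each group was 1 array with RNA pooled from 3 mice, so there was no spread between mice to set against any difference, and no test was possible. How the Tet2 allele was made is not given in the sources used here.

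Most serpins inhibit serine proteases by offering a reactive loop as bait: the protease cuts the loop, the serpin changes shape and the enzyme stays trapped. Clade A serpins are mostly secreted and circulate in plasma, clade B serpins mostly stay inside cells, and the smaller clades hold inhibitors of clotting, of plasmin and of complement. Some members have lost the inhibitory function and carry hormones or help collagen to fold.

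Values are log2 signals. A gene with several probe sets was read from the one with the highest mean signal, and a probe set ending in _x_at, whose probes can bind other transcripts, was used only where the gene had no other. Signals were compared above a floor at a log2 signal of 5.72, the 40th percentile of all signals. A difference of at least 2-fold was called higher or lower, and where 1 of the arrays compared lay under the floor the fold is a lower bound. Log2 ratios from different probe sets of 1 gene scattered with an SD of 0.39 for IR over sham in the knockout-labelled pair, 0.24 in the wild-type pair, 0.32 between the IR arrays and 0.19 between the sham arrays, which is a technical spread only. Column medians lay between 6.28 and 6.33. Tet2 was checked first: the knockout-labelled over wild-type log2 ratios of its probe sets were -0.41 and -0.70 after IR, and -0.09 and 0.41 after sham, so the sham array labelled knockout did not show less Tet2 RNA. Where these probe sets lie relative to the deletion is not known here, and the label is kept as a label. The tissue label was borne out by proximal tubule genes, of which 12 of 12 were over the floor in all 4 arrays. Since whole kidneys were profiled, fewer cells of a type and less RNA per cell cannot be told apart in any value below.

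Of the 40 serpins, 20 lay under the floor in all 4 arrays, with log2 signals between 3.30 and 5.64. Among them were Serpina5, the protein C inhibitor, Serpina7, the thyroxine-binding globulin, Serpinb2, an inhibitor of plasminogen activators, Serpinb5, known as maspin, and Serpind1, known as heparin cofactor II. The other 20 reached the floor in 1 or more arrays, 17 of them in all 4. These 20 were 7 of 14 clade A genes, 7 of 18 clade B genes, Serpinc1, Serpinf1, Serpinf2, Serping1, Serpinh1 and Serpini1. Of the 20, 13 passed 2-fold in at least 1 comparison. A gene that reached the floor only in the array where it was high had to differ, so the counts below describe the serpins and support nothing further.

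**Figure D1:**
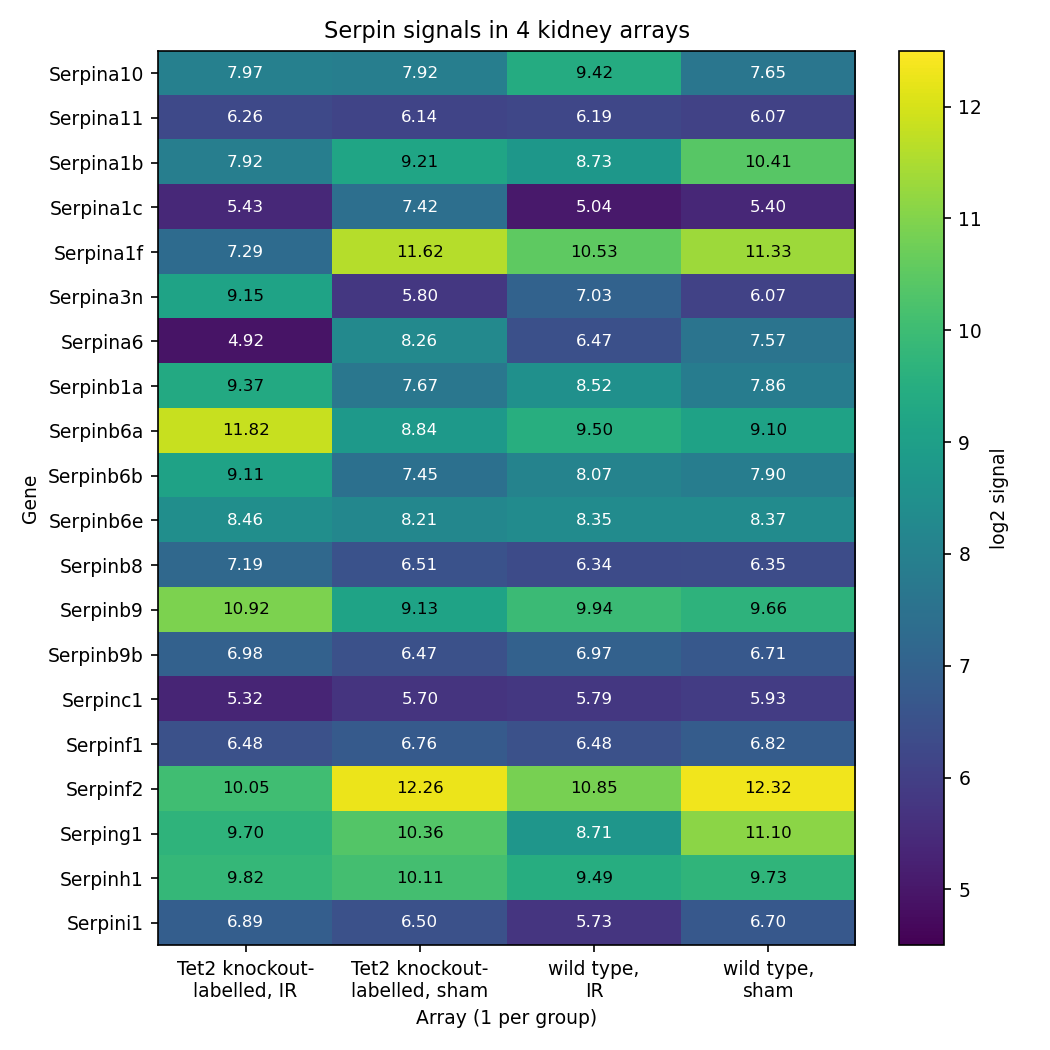
Log2 signals of the 20 serpins that reached the floor in 1 or more arrays, with genes down the side and the 4 arrays across, 1 array per group. Serpinb6a reads 11.82 in the knockout-labelled IR array and between 8.84 and 9.50 in the other arrays, and Serpina1f reads 7.29 there and between 10.53 and 11.62 in the others.

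IR against sham asks which serpins differed 1 day after the injury. In the knockout-labelled pair 5 of 19 measured serpins were higher (26.3%, against 6.06% of all genes measured) and 5 were lower (26.3%, against 6.89%). In the wild-type pair 1 of 19 was higher (5.26%, against 2.06%) and 4 were lower (21.1%, against 2.18%). The median log2 ratio of the serpins was 0.12 in the knockout-labelled pair and -0.03 in the wild-type pair, beside medians of -0.02 and 0.02 over all genes, so the family did not move one way. Higher after IR in the knockout-labelled pair were Serpina3n, Serpinb6a, Serpinb9, Serpinb1a and Serpinb6b. Lower in both pairs were Serpinf2, Serpina1b and Serpina6.

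**Figure D2:**
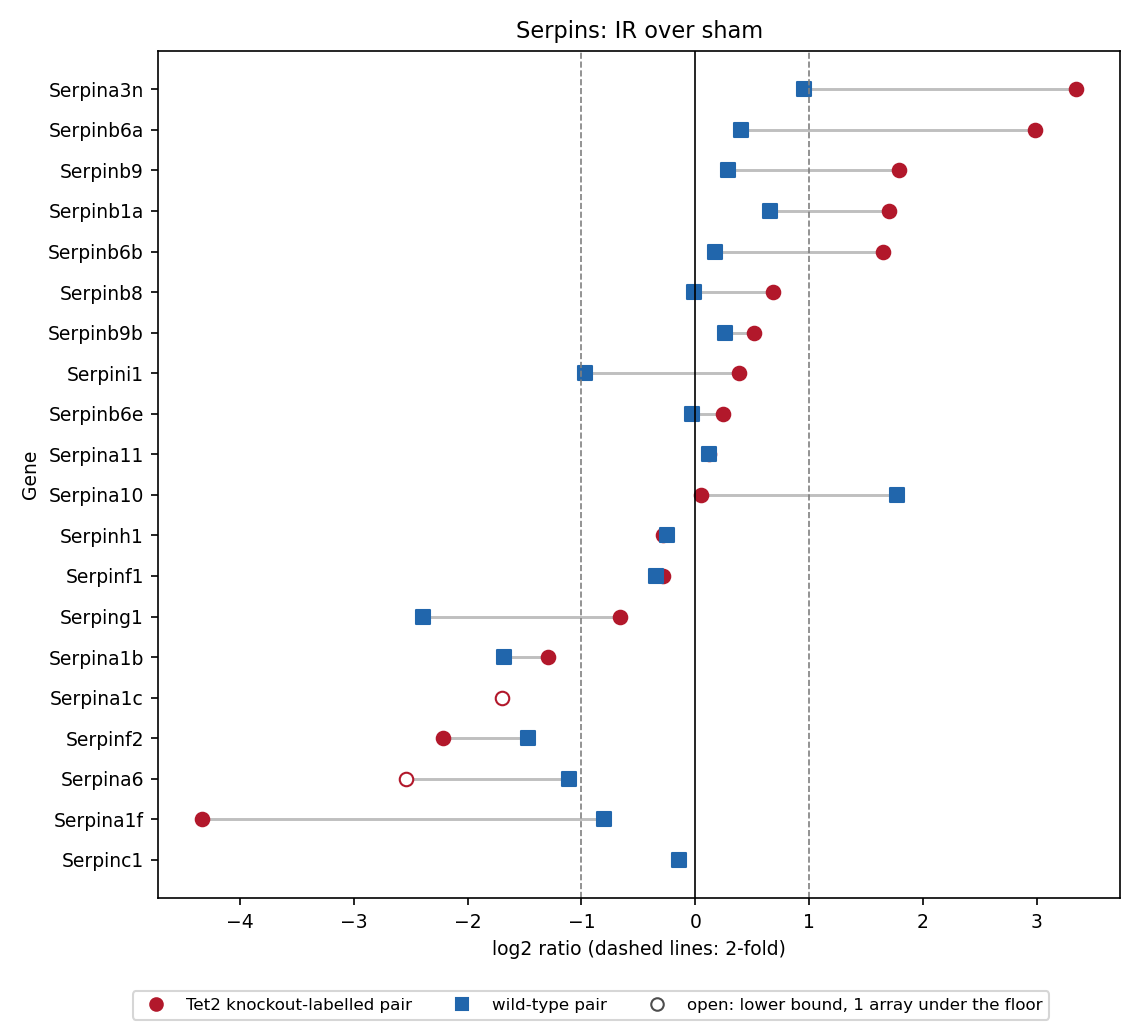
Log2 ratio of IR over sham for each serpin over the floor, with red circles for the knockout-labelled pair, blue squares for the wild-type pair, open symbols for lower bounds and dashed lines at 2-fold. The 5 genes at the top pass 2-fold in the knockout-labelled pair, while their wild-type ratios lie between 0.17 and 0.95.

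Serpina3n encodes a secreted inhibitor of the acute phase that in mice inhibits granzyme B and related proteases. Its log2 signal was 9.15 in the knockout-labelled IR array, against 5.80 in the knockout-labelled sham array, and 7.03 in the wild-type IR array, against 6.07 in the wild-type sham array. Both IR arrays lay above both sham arrays, with ratios of 10.2-fold in the knockout-labelled pair and 1.93-fold, just under the 2-fold line, in the wild-type pair. Between the IR arrays the knockout-labelled one was 4.35-fold higher. The sham signals lay close to the floor, and with the floor at the 60th percentile the log2 ratios were 2.16 and 0.04 in place of 3.34 and 0.95. Against the knockout-labelled sham array, the wild-type IR array passed 2-fold, at 1.22.

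The clade B serpins over the floor, which act inside cells, all had log2 ratios above 0 in the knockout-labelled pair. Serpinb6a, which inhibits trypsin-like proteases and cathepsin G, had log2 signals of 11.82 in the knockout-labelled IR array, against 8.84 in its sham array, and of 9.50 in the wild-type IR array, against 9.10 in its sham array. That is 7.89-fold in the knockout-labelled pair and 1.32-fold in the wild-type pair. Serpinb9, the inhibitor of granzyme B that protects cells from cytotoxic granules, had 10.92 against 9.13 in the knockout-labelled pair and 9.94 against 9.66 in the wild-type pair. Its ratio was 3.46-fold in the knockout-labelled pair, and its second probe set, at 0.99 on the log2 scale, fell just short of 2-fold.

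Serpinb1a, an inhibitor of the neutrophil proteases elastase, cathepsin G and proteinase 3, had log2 signals of 9.37 after IR against 7.67 after sham in the knockout-labelled pair, and of 8.52 against 7.86 in the wild-type pair. The knockout-labelled ratio was 3.25-fold, and the other probe set gave a bound of 1.22 on the log2 scale. Serpinb6b, a mouse paralogue of Serpinb6a, had 9.11 against 7.45 in the knockout-labelled pair, or 3.14-fold, and 8.07 against 7.90 in the wild-type pair. For all of these genes the knockout-labelled IR array was the highest of the 4 and the knockout-labelled sham array the lowest.

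The remaining clade B serpins over the floor moved less, on the probe sets used. Serpinb8, an inhibitor of furin in humans, had 7.19 against 6.51 in the knockout-labelled pair and 6.34 against 6.35 in the wild-type pair. Its second probe set, over the floor in all 4 arrays, gave log2 ratios of 0.37 and -0.65 in those pairs. Between the IR arrays that probe set passed 2-fold, at 1.01. Serpinb9b, which in mice inhibits granzyme M, and Serpinb6e, read from an _x_at probe set, had log2 ratios of 0.52 and 0.25 in the knockout-labelled pair and of 0.26 and -0.03 in the wild-type pair. In the knockout-labelled pair 7 of 7 clade B genes over the floor had ratios above 0, with a median of 1.65, and in the wild-type pair 5 of 7 did, with a median of 0.26.

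Summed signals of tubular injury and neutrophil markers moved with these genes, and their part in the result was not tested. Summed over 9 tubular injury markers, the linear signal was 66191 in the knockout-labelled IR array, against 4366 in its sham array, and 37381 in the wild-type IR array, against 6205 in its sham array. For 6 neutrophil markers the sums were 2239 against 318 and 490 against 335. The neutrophil list did not rise as a set. In the knockout-labelled pair 2 of 4 measured markers were higher, S100a8 and S100a9, against 6.06% of all genes. Csf3r and Ngp had log2 ratios of 0.30 and 0.06 there. The neutrophil granule enzyme gene Mpo lay under the floor in all 4 arrays. The sums of 5 platelet markers were 1173 against 742 and 665 against 783. Pf4 and Ppbp, chemokines of platelets, were highest in the knockout-labelled IR array, whereas Itga2b and Gp1bb, which encode platelet surface receptor chains, were lowest there, and the median log2 ratio of the list in that pair was 0.09.

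Promoter sequences are shown for the 2 serpins with the largest ratios after IR in the knockout-labelled pair, as the 250 bases before the annotated start in RefSeq (GRCm38.p6). Serpina3n lies at chr12:104406458-104406707 on the plus strand and Serpinb6a, for the first of 2 listed starts, at chr13:34002795-34003044 on the minus strand. Capitals mark matches, on either strand, to any of 7 motifs searched, given here with their share of 32851 promoter windows of that length. The STAT motif (TTCNNNGAA) occurs in 7.02%, the AP-1 motif (TGANTCA) in 6.75%, the HNF1 motif (GTTAAT) in 6.43% and the HNF4 motif (CAAAGT) in 12.6%. The TATA motif (TATAAA) occurs in 12.4%, the C/EBP motif (TTGCGCAA) in 0.164% and an NF-kB consensus, given by name only, in 0.14%. A match is a description of the letters and no evidence of binding.
Serpina3n: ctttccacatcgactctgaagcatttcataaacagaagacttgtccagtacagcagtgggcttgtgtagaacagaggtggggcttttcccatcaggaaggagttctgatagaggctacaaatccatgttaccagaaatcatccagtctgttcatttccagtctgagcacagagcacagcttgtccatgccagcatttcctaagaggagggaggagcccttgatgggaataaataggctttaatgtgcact
Serpinb6a: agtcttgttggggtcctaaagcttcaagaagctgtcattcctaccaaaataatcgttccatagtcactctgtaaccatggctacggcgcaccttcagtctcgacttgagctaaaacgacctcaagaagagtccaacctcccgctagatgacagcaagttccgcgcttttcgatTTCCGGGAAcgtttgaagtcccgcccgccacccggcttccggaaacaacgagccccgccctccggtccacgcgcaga
The Serpina3n window held 0 matches to the 7 motifs, and the Serpinb6a window held 1 match, to the STAT motif. The window of the other listed Serpinb6a start, at chr13:33936084-33936333 on the minus strand, held no STAT match and 1 HNF4 match.

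In the knockout-labelled pair the sharpest falls after IR were in clade A and clade F. Serpina1f belongs to the mouse gene group of alpha-1-antitrypsin, the plasma inhibitor of neutrophil elastase. Its log2 signal was 7.29 in the knockout-labelled IR array, against 11.62 in the knockout-labelled sham array, and 10.53 in the wild-type IR array, against 11.33 in the wild-type sham array. The knockout-labelled IR array thus stood apart from the other arrays, 20.1-fold below its sham array and 9.41-fold below the wild-type IR array, while the wild-type pair differed by 1.74-fold. Against the knockout-labelled sham array the wild-type IR array was past 2-fold, at a log2 ratio of -1.10.

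Serpinf2 encodes alpha-2-antiplasmin, the main inhibitor of the clot-dissolving enzyme plasmin, which mouse kidney is known to make. Its log2 signals were 10.05 in the knockout-labelled IR array, against 12.26 in its sham array, and 10.85 in the wild-type IR array, against 12.32 in its sham array. Both IR arrays lay below both sham arrays, by 4.64-fold in the knockout-labelled pair and 2.76-fold in the wild-type pair, and the sham arrays differed by 1.04-fold. With the sham array of the other genotype as control the log2 ratios were -2.27 and -1.41.

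Serpina6 encodes corticosteroid-binding globulin, a carrier of glucocorticoids with no inhibitory function. It had log2 signals of 4.92, under the floor, in the knockout-labelled IR array, against 8.26 in its sham array, and of 6.47 in the wild-type IR array, against 7.57 in its sham array. The gene was at least 5.83-fold lower after IR in the knockout-labelled pair and 2.15-fold lower in the wild-type pair. That wild-type call ended with the floor at the 60th percentile, at a log2 ratio of -0.59, and when a pseudocount replaced the floor, at -0.78.

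Serpina1b and Serpina1c are further members of the alpha-1-antitrypsin group and are close in sequence, so probes can bind the RNA of more than 1 of them and their values are uncertain. Serpina1b, read from _x_at probe sets only, had log2 signals of 7.92 in the knockout-labelled IR array, against 9.21 in its sham array, and of 8.73 in the wild-type IR array, against 10.41 in its sham array. It was 2.45-fold lower after IR in the knockout-labelled pair and 3.20-fold lower in the wild-type pair, and its other probe set gave log2 ratios of -1.29 and -1.59. With the sham arrays exchanged the ratios were -2.49 and -0.48, which ended the wild-type call. Serpina1c was over the floor in the knockout-labelled sham array alone, at 7.42, with 5.43 in the knockout-labelled IR array, 5.04 in the wild-type IR array and 5.40 in the wild-type sham array. Its fall after IR was at least 3.24-fold in the knockout-labelled pair, and it was not measured in the wild-type pair. With the floor at the 60th percentile that fall was under 2-fold, at -0.43 on the log2 scale.

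The promoters of these 3 genes are shown because the genes belong to 1 group and their signals differed in pattern. The windows of 250 bases before the RefSeq start (GRCm38.p6) lie at chr12:103695530-103695779 on the minus strand, chr12:103738190-103738439 on the minus strand and chr12:103904951-103905200 on the minus strand, in the order Serpina1f, Serpina1b and Serpina1c. Capitals mark the same 7 motifs.
Serpina1f: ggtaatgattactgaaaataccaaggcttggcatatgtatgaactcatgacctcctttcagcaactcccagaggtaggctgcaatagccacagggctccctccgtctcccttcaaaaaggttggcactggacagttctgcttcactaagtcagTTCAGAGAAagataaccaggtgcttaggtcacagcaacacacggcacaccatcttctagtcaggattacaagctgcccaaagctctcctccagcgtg
Serpina1b: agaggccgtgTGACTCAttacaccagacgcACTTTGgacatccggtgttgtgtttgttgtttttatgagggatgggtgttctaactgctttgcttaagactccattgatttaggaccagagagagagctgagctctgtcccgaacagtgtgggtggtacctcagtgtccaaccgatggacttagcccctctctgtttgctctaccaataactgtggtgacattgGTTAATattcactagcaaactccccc
Serpina1c: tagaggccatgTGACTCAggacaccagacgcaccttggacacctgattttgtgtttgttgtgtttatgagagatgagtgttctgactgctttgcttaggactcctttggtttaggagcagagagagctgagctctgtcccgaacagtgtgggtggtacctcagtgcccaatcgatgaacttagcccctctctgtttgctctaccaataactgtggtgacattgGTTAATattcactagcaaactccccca
Aligned end to end, the windows of Serpina1b and Serpina1c were identical at 90.9% of alignment positions, and those of Serpina1f and Serpina1b at 50.7%. Serpina1b and Serpina1c each held 1 AP-1 match and 1 HNF1 match, and Serpina1b also held 1 HNF4 match. Serpina1f held 1 STAT match. No matches overlapped in the windows shown.

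Proximal tubule markers were, as a sum, lower after IR in both pairs, like Serpina1f, Serpinf2, Serpina6 and Serpina1b, and their part was not tested. The summed linear signal of 12 markers was 49924 in the knockout-labelled IR array, against 117711 in its sham array, and 73886 in the wild-type IR array, against 114956 in its sham array. In the knockout-labelled pair 9 of 12 were lower, against 6.89% of all genes, and in the wild-type pair 4 of 12, against 2.18%. Kap and Slc5a2 hardly differed in the knockout-labelled pair, at log2 ratios of -0.11 and -0.08. In the wild-type pair Slc22a6 was above sham, at 0.43. Serpina1b fell less in the knockout-labelled than in the wild-type pair, at -1.29 and -1.68. The marker medians, -1.76 and -0.77, had the reverse order. Several of the falling serpins are best known from liver. Of 9 hepatocyte markers 7 were over the floor in each array, but the liver enzyme gene Cps1 read between 3.93 and 4.08 and Ahsg between 5.35 and 5.61, both under the floor in all 4 arrays. Albumin, Alb, read 6.45 in the knockout-labelled IR array, 6.56 in the knockout-labelled sham array, 6.45 in the wild-type IR array and 6.43 in the wild-type sham array.

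Serpina10, the protein Z-dependent inhibitor of clotting factor X, went the other way and in 1 array. Its log2 signal was 7.97 in the knockout-labelled IR array, against 7.92 in the knockout-labelled sham array, and 9.42 in the wild-type IR array, against 7.65 in the wild-type sham array. It was 3.41-fold higher after IR in the wild-type pair and 1.04-fold higher in the knockout-labelled pair, and it was the 1 serpin that passed 2-fold upward in wild type. The apolipoprotein genes of the hepatocyte list were likewise highest in the wild-type IR array: Apoc3 had log2 signals of 9.74 against 10.74 in the knockout-labelled pair and of 12.59 against 9.99 in the wild-type pair, and Apoa1 had 6.77 against 6.60 and 8.09 against 6.42. That likeness was not tested.

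Serping1 encodes C1 inhibitor, which blocks the first proteases of complement and of the kallikrein system. It had log2 signals of 9.70 in the knockout-labelled IR array, against 10.36 in its sham array, and of 8.71 in the wild-type IR array, against 11.10 in its sham array. The wild-type pair differed by 5.25-fold and the knockout-labelled pair by 1.58-fold, both lower after IR. The size in each pair depended in part on its sham array. With the sham arrays exchanged, the log2 ratios were -1.40 for the knockout-labelled IR array and -1.65 for the wild-type IR array. Between the IR arrays the knockout-labelled one was 1.98-fold higher, and between the sham arrays it was 1.67-fold lower.

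Markers of vessels, stroma and fat were set beside Serping1, and their part was not tested. Summed linear signals of 9 endothelial markers were 2616 in the knockout-labelled IR array, against 3295 in its sham array, and 1161 in the wild-type IR array, against 3415 in its sham array. Of 9 fibroblast and mural cell markers the sums were 5801 against 2903 and 1915 against 3817, and of 7 adipose markers 9774 against 1573 and 748 against 7181. All 3 sums were lowest in the wild-type IR array, where Serping1 was lowest too. The endothelial sums had the order of Serping1 over the knockout-labelled pair, lower after IR. The fibroblast and mural cell sum and the adipose sum were highest in the knockout-labelled IR array, where Serping1 was lower than after sham. In the knockout-labelled pair the fibroblast and mural cell list was mixed. Of 8 measured genes 3 were higher, against 6.06% of all genes, and 2 lower, against 6.89%. Acta2, Tagln and Postn were higher. Like Serping1, Pdgfra and Dcn were lower after IR in both pairs. Their log2 ratios were -1.12 and -1.20 in the knockout-labelled pair, and -2.54 and -2.09 in the wild-type pair.

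Serpini1 encodes neuroserpin, an inhibitor of tissue plasminogen activator best known from neurons. Its log2 signals were 6.89 in the knockout-labelled IR array, against 6.50 in its sham array, and 5.73 in the wild-type IR array, against 6.70 in its sham array. The wild-type ratio of -0.97 fell just short of 2-fold, and its second probe set, which was under the floor in that IR array, gave -0.24. Serpinh1, known as HSP47, the chaperone of collagen in the endoplasmic reticulum, differed little. It had 9.82 against 10.11 in the knockout-labelled pair and 9.49 against 9.73 in the wild-type pair, and its other probe set had ratios of -0.21 and -0.07. Serpinf1, the non-inhibitory pigment epithelium-derived factor, had log2 ratios of -0.29 and -0.34 in those pairs, and Serpina11 had 0.12 in both. Antithrombin, Serpinc1, was near or under the floor, with signals between 5.32 and 5.93.

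The knockout-labelled array against the wild-type array asks how the genotypes differed under each treatment. After IR 4 of 19 measured serpins were higher (21.1%, against 3.68% of all genes) and 2 lower (10.5%, against 3.99%). The higher ones were Serpinb6a at 4.98-fold, Serpina3n at 4.35-fold, Serpini1 at 2.22-fold and Serpinb6b at 2.04-fold, and the lower ones Serpina1f at 9.41-fold and Serpina10 at 2.73-fold. Serping1, at 1.98-fold higher, and Serpinb9, at 1.97-fold higher, lay just under the line. For Serpini1 the call ended when a pseudocount replaced the floor, at a log2 ratio of 0.69, or with the median over its probe sets, at 0.49. The Serpinb6b call, so near the line, ended with that pseudocount too, at 0.91. With quantile normalization Serpinb6b fell barely short of 2-fold and Serpinb9 passed it, at 1.01.

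After sham 1 of 20 serpins was higher (5%, against 0.186% of all genes) and 1 lower (5%, against 0.846%). These were the close relatives Serpina1c, at least 3.24-fold higher, and Serpina1b, 2.29-fold lower. The other probe set of Serpina1b gave a log2 ratio of -0.80, under 2-fold, and the call for Serpina1c ended with the floor at the 60th percentile, at 0.43. In clade B 1 of 7 genes over the floor had a ratio above 0 between the sham arrays, with a median of -0.24, and 7 of 7 did between the IR arrays, with a median of 0.85.

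**Figure D3:**
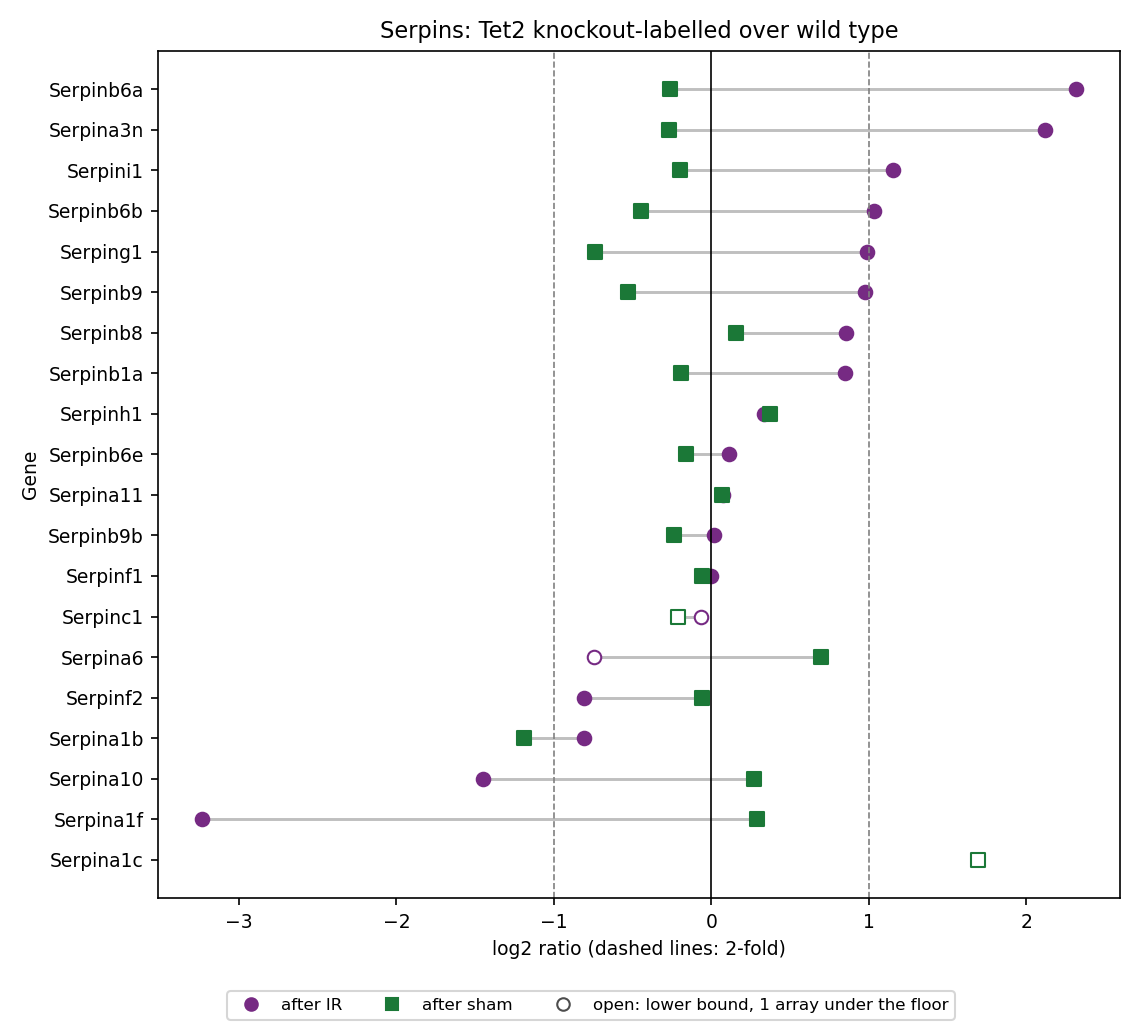
Log2 ratio of the knockout-labelled over the wild-type array for each serpin over the floor, with purple circles after IR, green squares after sham, open symbols for lower bounds and dashed lines at 2-fold. Sham ratios lie between -1.19 and 1.69, and IR ratios between -3.23 and 2.32.

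The response to IR was then compared between genotypes as the knockout-labelled minus the wild-type log2 ratio. It uses the same 4 arrays as the comparisons above, so it is not separate evidence. By this difference 7 of 20 serpins were higher at 2-fold (35%, against 4.75% of all genes) and 4 lower (20%, against 4.77%). Serpinb6a had a difference of 2.58, Serpina3n of 2.39, Serping1 of 1.73, Serpinb9 of 1.50, Serpinb6b of 1.48, Serpini1 of 1.35 and Serpinb1a of 1.05. Serpina1f had -3.53, Serpina10 -1.72, and Serpina1c and Serpina6, each with an array under the floor, -1.69 and -1.44.

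Much of that difference depended on which sham array served as control. With the sham arrays exchanged, the differences were 2.06 for Serpinb6a, 1.85 for Serpina3n, -2.94 for Serpina1f and -1.18 for Serpina10, all still at 2-fold. They were 0.58 for Serpinb6b, 0.45 for Serpinb9, 0.66 for Serpinb1a, 0.25 for Serping1, 0.95 for Serpini1 and -0.05 for Serpina6, all under it. Serpina1c turned round, to 1.69. Serpinb8, at 1.01, and Serpina1b, at -2.001, passed 2-fold with the exchange alone, so that 2 of the 7 higher and 2 of the 4 lower calls held with either sham array.

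Most serpin genes over the floor lie in clusters of neighbouring genes. In the RefSeq gene order the clade A cluster on chromosome 12 runs over 23 protein-coding genes from Serpina10 to Serpina3n, of which 12 were read and 7 reached the floor. In the knockout-labelled pair 4 of them were lower after IR and 1, Serpina3n at the far end, was higher. Over all genes measured in that pair 6.89% were lower and 6.06% higher. The clade B cluster on chromosome 13 runs over 16 genes from Serpinb1a to Serpinb6a, of which 11 were read and 6 reached the floor, with 4 higher and 0 lower in that pair. In the wild-type pair, by the same 2-fold line, Serpina10 was higher, and its neighbour Serpina6 and Serpina1b were lower.

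**Figure D4:**
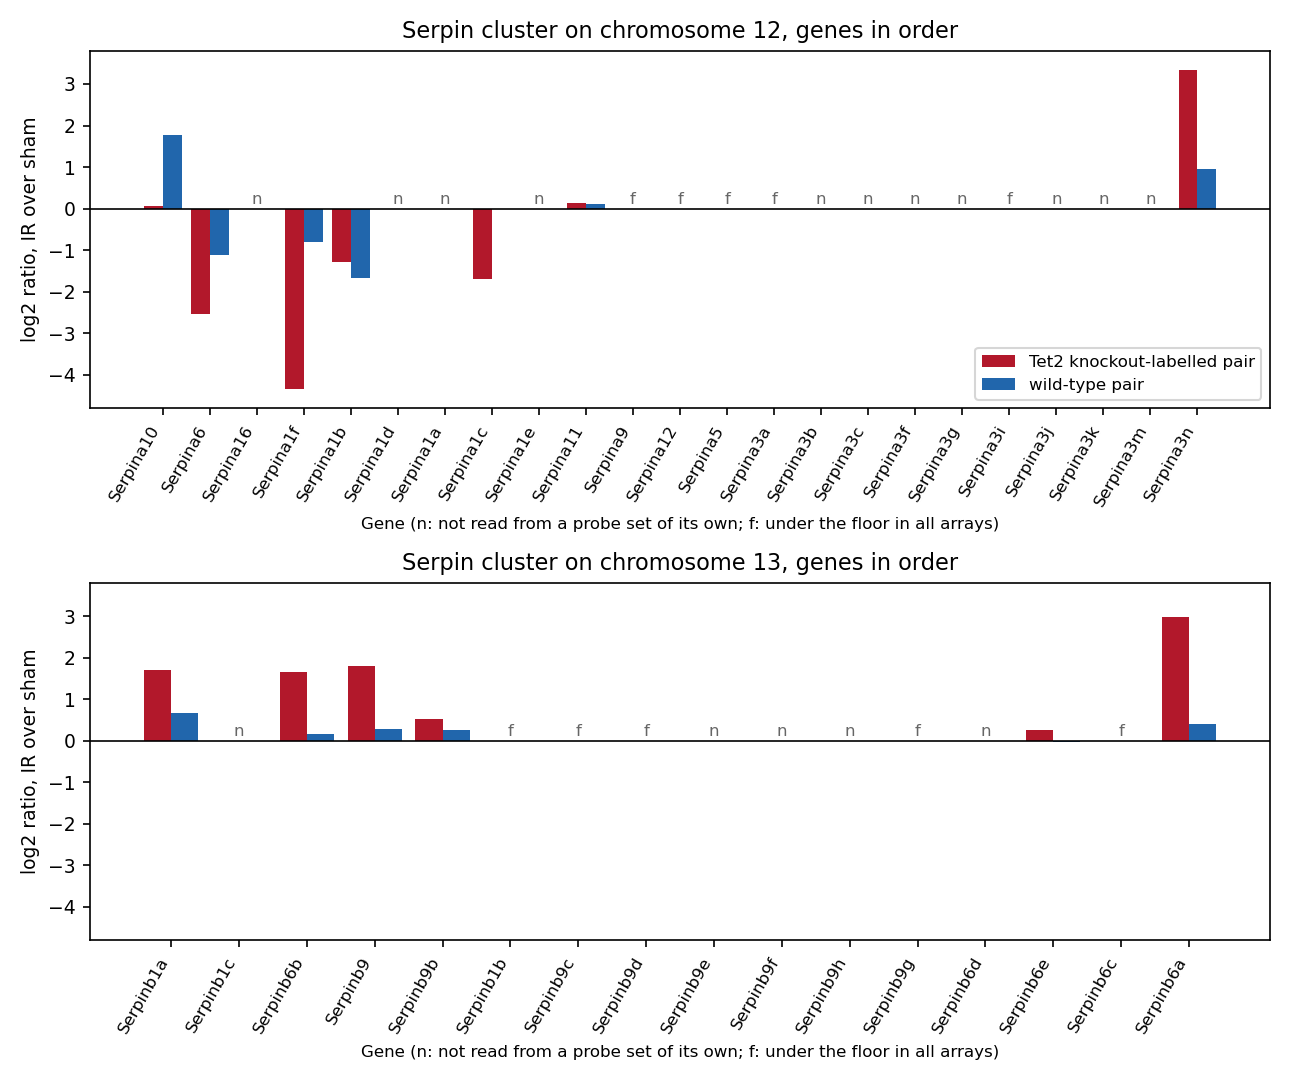
Log2 ratio of IR over sham for the serpin genes of the chromosome 12 cluster (top) and the chromosome 13 cluster (bottom), in gene order and evenly spaced, with red bars for the knockout-labelled pair and blue bars for the wild-type pair. On chromosome 12 bars run from -4.33 for Serpina1f to 3.34 for Serpina3n, and on chromosome 13 the red bars all lie above 0.

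Proteases and partners of the serpins were read from lists chosen for their role. The counts of these lists stand beside the shares over all genes measured. Those were 6.06% higher and 6.89% lower in the knockout-labelled pair, and 2.06% higher and 2.18% lower in the wild-type pair. A list of plasminogen activation genes, the system opposed by alpha-2-antiplasmin and neuroserpin, also held clotting and thrombin genes, and had 8 of 12 measured genes higher and 0 lower after IR in the knockout-labelled pair, with a median log2 ratio of 1.66, and 3 of 12 higher and 0 lower in the wild-type pair, with a median of 0.08. Of the 8, Plat, Plaur, Anxa2 and its binding partner S100a10 belong to plasminogen activation. The others were F3, the clotting starter tissue factor, F2r, a thrombin receptor, Thbd, which encodes thrombomodulin, and Procr, the protein C receptor, with log2 ratios of 1.32, 1.70, 1.63 and 2.36. The 3 in wild type were Anxa2, S100a10 and F3. Anxa2, which encodes a surface protein that binds plasminogen, was 9.23-fold higher in the knockout-labelled pair and 2.92-fold in the wild-type pair, although its _x_at probe set gave log2 ratios of 1.19 and 0.98. Plaur, the urokinase receptor, was 8.33-fold and 1.92-fold higher in the same pairs. Plat, which encodes tissue plasminogen activator, had log2 signals of 11.27 in the knockout-labelled IR array, against 8.84 in its sham array, and of 10.03 in the wild-type IR array, against 10.09 in its sham array, and its other probe set had a knockout-labelled ratio of 0.73. Plg, the gene of plasminogen itself, lay at the floor, between 5.64 and 5.74.

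Contact and early complement genes included proteases that C1 inhibitor blocks. The list also held C1qa, C1qb, C1qc and Kng1, which do not encode proteases, and C2 and Cfb, which are not targets of C1 inhibitor. After IR 0 of 12 measured genes passed 2-fold upward and 3 downward in the knockout-labelled pair, where the median was -0.66. In the wild-type pair these numbers were 0 of 12 and 4, and the median was -0.35. The lower genes were C1qb, C1s1 and Masp1 in both pairs, and C1qa in the wild-type pair alone. C1qb had log2 ratios of -1.04 in the knockout-labelled and -1.05 in the wild-type pair. Its _x_at probe sets, over the floor, gave -0.15 and -0.10 in the former and -0.03 and -0.13 in the latter. C1s1, a target protease of C1 inhibitor, was 2.13-fold lower in the knockout-labelled pair and 3.25-fold lower in the wild-type pair. Masp1, a protease of the lectin pathway, was 2.17-fold lower in both, but its second probe set over the floor gave log2 ratios of 0.23 and 0.25. A list of granule genes of neutrophils and lymphocytes held target proteases of Serpinb1a, Serpinb9 and Serpina3n. It also held Mpo and Prf1, which do not encode proteases. In the knockout-labelled pair 3 of 8 genes were measured and in the wild-type pair 4 of 8, with 0 at 2-fold in either. Prf1 was among the measured genes in both pairs. Cathepsin G, Ctsg, and granzyme B, Gzmb, lay under the floor in all 4 arrays, and Elane reached 5.86 in the knockout-labelled IR array and lay between 5.60 and 5.66 in the others.

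Collagen genes and the enzymes that fold collagen are the setting in which Serpinh1 works. After IR in the knockout-labelled pair 3 of 18 were higher and 1 was lower, with a median of -0.07. In the wild-type pair 0 passed 2-fold, with a median of 0.11. Over all genes 6.06% were higher and 6.89% lower in the knockout-labelled pair, so 1 called gene in this list or the next was near that share. The basement membrane collagens Col4a1 and Col4a2 were 2.58-fold and 2.04-fold higher in the knockout-labelled pair, and the other Col4a1 probe set had a log2 ratio of 0.33. Among 13 cathepsins and trypsin-like tubule proteases, 1 was higher in the knockout-labelled pair, the membrane protease matriptase, St14, at 2.72-fold, and 0 passed in the wild-type pair. Cathepsin B, Ctsb, lay just under the line in the knockout-labelled pair at 1.99-fold, and others of its probe sets passed it, with log2 ratios of 1.63, 1.49 and 1.14. A further Ctsb probe set over the floor did not, at 0.40. Protease inhibitors outside the serpin symbols went both ways, with 3 of 19 higher and 5 lower in the knockout-labelled pair and 3 of 18 higher and 4 lower in the wild-type pair. The metalloproteinase inhibitor Timp1 had log2 signals of 8.91 against 5.89 in the knockout-labelled pair, and of 7.72 against 5.47, under the floor, in the wild-type pair. Itih5, an inter-alpha-trypsin inhibitor chain, was 9.56-fold and 2.44-fold lower, and its other probe sets were also lower in the knockout-labelled pair, by log2 ratios of -1.16 and -2.32. Agt, which encodes the serpin angiotensinogen under another name, had 7.74 in the knockout-labelled IR array, against 9.27 in its sham array, and 9.51 in the wild-type IR array, against 9.14 in its sham array.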

How the data were processed

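Kidney RNA of 4 groups was measured on 1 Affymetrix array each, with RNA pooled from 3 mice per array, per the labels' protocols. The authors deposited log2 signals of 45037 probe sets; the log2 unit was taken from their range, 2.51 to 14.97. The submitters' processing notes name MAS5, and the scaling between arrays is not given in the sources used here. Column quantiles differed from their mean by at most 0.10, the values are not centred, and the columns were used as deposited. The number of arrays limits the precision.

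Symbols came from the annotation of the array: 34945 probe sets had 1 symbol, 932 had several and 9160 were not listed. All 56 serpin probe sets had a gene identifier in RefSeq, and 0 symbols needed an update. Log2 ratios were computed with Python 3.11.15 and pandas 2.3.3 on signals raised to the floor, and the calculation was tested on simulated data. No p-value is given. Serpins past 2-fold in any comparison of arrays are described with all values, other members by range, and some genes from each list. Members, lists and motifs were chosen with earlier results of these data known. In 8 alternatives the probe set rule, the floor, the scaling and the sham control were changed 1 at a time.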

Additional observations from a re-analysis of the deposited data

Results flagged for a closer look

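Several genes had log2 ratios of IR over sham with opposite signs in the pairs of arrays. With 1 array per group these differences were not tested. Among the serpins, Serpini1 had 0.387 in the knockout-labelled pair and -0.97 in the wild-type pair. The former was smaller than the spread of 0.394 between probe sets of 1 gene in that pair. Another Serpini1 probe set gave 0.26 and, with the wild-type IR array under the floor, -0.24. Serpinb8 had 0.68 and -0.015, and Serpinb6e had 0.25 and -0.027, in the same pairs. On these probe sets the wild-type ratios of Serpinb8 and Serpinb6e were smaller than the spread between probe sets of 1 gene. The second Serpinb8 probe set had 0.37 and -0.65. Its wild-type ratio was larger than that spread, and its knockout-labelled ratio was smaller than the spread in that pair. Among other genes named above, Plat had 2.44 in the knockout-labelled pair and -0.058 in the wild-type pair, Thbd had 1.63 and -0.43, Pf4 had 1.90 and -0.23, and Ppbp had 2.36, a lower bound, and -0.0039. Agt had -1.52 in the knockout-labelled pair and 0.37 in the wild-type pair, Apoc3 had -0.997 and 2.60, and Alb had -0.11 and 0.026. The wild-type ratios of Plat, Pf4, Ppbp and Alb were smaller than the spread between probe sets in that pair. So was the knockout-labelled ratio of Alb in its pair.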

How the results depend on the processing

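Directions of single serpin genes past 2-fold kept their sign wherever the 8 alternatives gave a value, except that the difference of IR responses of Serpina1c, a gene under the floor in 3 arrays, was 1.69 in place of -1.69 with the sham arrays exchanged. Some alternatives gave no value for genes without a plain _at probe set or with an array under the floor. Comparisons between genotypes were not repeated with the sham arrays exchanged. Across gene values, 391 moved by less than the spread between probe sets of 1 gene and 58 by more, 25 of these with the sham arrays exchanged. The counts of serpins past 2-fold were small and several moved by over 1.5 times. With plain _at probe sets alone, 0 serpins were higher after IR in the wild-type pair in place of 1, 1 was lower between the IR arrays in place of 2, 0 were lower between the sham arrays in place of 1, and the median log2 ratio between the IR arrays was 0.85 in place of 0.12. The lost calls were those of Serpina10 and Serpina1b. These genes have no plain _at probe set, so they were left out and not measured again, as was Serpinb6a. With the sham arrays exchanged, 2 serpins were higher after IR in wild type, and 4 in place of 7 had a higher response in the knockout-labelled pair, with 2 of the 7 among the 4. When a pseudocount replaced the floor, 2 in place of 4 were higher between the IR arrays. The median over probe sets left 0 lower between the sham arrays. With the floor at the 60th percentile, 0 were higher between the sham arrays and 2 in place of 4 had a lower response. Over genes at or over the floor in every array compared, these counts were 0 and 2 as well, and 3 in place of 5 were lower after IR in the knockout-labelled pair. Quantile normalization and a floor at the 20th percentile moved 0 of the counts by over 1.5 times. No paired analysis was possible because each group had 1 array. Signals near the floor, as for Serpina3n and Serpina1c after sham, limit the size of their ratios.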

Other observations

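One _x_at probe set listed under more than 1 clade A serpin symbol differed more between the sham arrays than any serpin with a probe set of its own. Its log2 signals were 7.79 in the knockout-labelled IR array, against 10.88 in the knockout-labelled sham array, and 6.00 in the wild-type IR array, against 6.54 in the wild-type sham array. The knockout-labelled array was 3.45-fold higher than the wild-type array after IR and 20.2-fold higher after sham. A second such probe set was over the floor in the knockout-labelled sham array alone, at 6.30, and read 4.54 in the knockout-labelled IR array, 4.49 in the wild-type IR array and 4.29 in the wild-type sham array. In both, as for Serpina1c, the knockout-labelled sham array was highest, while the Serpina1b probe sets read lower in that array than in the wild-type sham array. Which gene of the group these probe sets report cannot be told from the annotation, and each group was 1 array of pooled RNA.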
